A study of Mus musculus with 96 samples.

Results

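In the authors' deposited annotation of cell states, 27 of 96 single ThPOK-/- progenitor cells have no state, and 26 are placed in the state named Multi-Lin-1. The 27 cells were those whose names are absent from the annotation, and they were set against the 26 Multi-Lin-1 cells, 53 of the 96 cells in all. The other cells of this genotype were placed in the states IG2 (31 cells) and proNeu-1 (12 cells), which are used below only where a cell is compared with the mean profile of each state. All 96 cells were ThPOK-/- (a knockout of Zbtb7b, which encodes the transcription factor ThPOK) on the C57BL/6 strain, with no age, sex or animal given. They came from crushed hindlimb bones and were enriched with beads against CD117, the receptor Kit. The labels name the sorted population modified GMP, where GMP stands for granulocyte-monocyte progenitors, and do not say what modified means. Single cells of it were taken with the Fluidigm C1 system. SMARTer cDNA and Nextera XT libraries were made. Both sets therefore share genotype, strain, tissue, enrichment and sort, and they are told apart by the annotation alone. Wild-type cells of the series were not analysed here.

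With no animal named, the 96 cells count as 1 sample, and no test between cells was made. How the states were made is not given in the sources used here, and neither is the reason why 27 cells have none. If the states rest on these expression values, a difference between the sets is partly fixed by that choice. Every difference below is therefore a description of these 53 cells. Cell names carry the number 078 or 079, whose meaning is not given. The cells without a state were 15 of number 078 and 12 of number 079, and the Multi-Lin-1 cells were 11 and 15.

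Expression is given as log2(TPM + 1), where TPM (RSEM's length-corrected transcript abundance) is scaled to the same sum in every cell. A difference is the mean log2 value in cells without a state minus that in Multi-Lin-1 cells. A gene was kept when at least 10% of the 53 cells reached a TPM of 1, which left 7158 of 23955 genes. A gene met the size rule when its difference was at least 1.5 in size and had the same sign in cells numbered 078 and in those numbered 079. Cells at a TPM of 1 or more are called detected, and those at 30 or more are counted beside them as clear expression.

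Bone marrow progenitors lose stem cell surface proteins such as CD34 and start the genes of 1 lineage as they mature. The transcription factor GATA1 works in erythroid cells, megakaryocytes, mast cells, basophils and eosinophils, while KLF1 acts mainly in the erythroid lineage, where it turns on haemoglobin and red cell membrane genes. Mast cells and basophils carry the high-affinity IgE receptor, whose beta chain is encoded by Ms4a2, and basophils store the protease MCPT8. GMP are classically the source of neutrophils and monocytes, whose precursors make the granule proteins myeloperoxidase, elastase and proteinase 3.

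Because 4 of the 5 marker genes below are genes of GATA factor lineages, the stretch of up to 250 bases before the RefSeq start of each is printed here (RefSeq, GRCm38.p6; coding strand, 5′ to 3′). Bases that the GENCODE M21 annotation counts as part of the gene's first exon were left off for Klf1, which leaves 196 bases, and for Mcpt8, which leaves 174. The Gata1 stretch lies within the span of the gene in that annotation, in no annotated exon. Capitals mark matches on either strand to the motif AGATAA, to its variant AGATAG, to the form TGATAA or to the last one searched, TGATAG, all of which GATA factors are known to bind; no matches overlapped.
Gata1, chrX:7967911-7968160, minus strand: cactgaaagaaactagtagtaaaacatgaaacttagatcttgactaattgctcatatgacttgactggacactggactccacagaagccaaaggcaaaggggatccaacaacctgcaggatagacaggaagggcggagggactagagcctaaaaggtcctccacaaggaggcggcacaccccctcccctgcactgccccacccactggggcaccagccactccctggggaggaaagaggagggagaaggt
Klf1, chr8:84901732-84901927, plus strand: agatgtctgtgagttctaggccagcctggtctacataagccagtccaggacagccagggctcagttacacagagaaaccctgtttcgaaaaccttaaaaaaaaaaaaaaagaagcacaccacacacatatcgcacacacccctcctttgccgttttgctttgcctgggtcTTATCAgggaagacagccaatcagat
Ms4a2, chr19:11623720-11623969, minus strand: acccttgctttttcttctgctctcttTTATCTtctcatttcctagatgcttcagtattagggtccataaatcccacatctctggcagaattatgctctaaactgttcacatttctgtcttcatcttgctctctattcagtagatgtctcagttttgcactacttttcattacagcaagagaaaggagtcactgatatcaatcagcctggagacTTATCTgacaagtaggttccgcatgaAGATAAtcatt
Mcpt8, chr14:56085274-56085447, minus strand: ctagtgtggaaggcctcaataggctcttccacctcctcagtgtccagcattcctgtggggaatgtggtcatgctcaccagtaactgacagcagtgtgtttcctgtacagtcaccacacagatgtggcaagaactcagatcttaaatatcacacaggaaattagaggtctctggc

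Gata1 and Mcpt8 had 0 matches in their 250 bases, Klf1 had 1, which starts 80 bases before the RefSeq start, and Ms4a2 had 3. Of 32851 mouse promoters of the same length, 26.5% held at least 1 match and 1.35% held 3 or more. Among the 5451 genes kept here that have such a sequence, 19.98% held at least 1. A match is a run of letters, not a site shown to be bound, and none says only that the letters are not in this window.

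Gata1, Klf1, Ms4a2 and Mcpt8 were higher in the cells without a state than in Multi-Lin-1, and Cd34 was lower. All 5 met the size rule, which over all genes 1.7% met as higher and 5.28% met as lower. The markers were chosen with earlier results of these data known, so those shares give a scale and not a test. The sets overlapped for every marker, since each had cells listed at 0 in both sets. The number of cells that clearly expressed each gene differed between the sets, and the levels in such cells were not all alike. On the log2(TPM + 30) scale, which shrinks differences of low genes, Gata1 (0.92), Klf1 (0.76) and Ms4a2 (1.13) no longer met the rule, while Mcpt8 (2.27) and Cd34 (-1.62) did.

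Gata1 (ENSMUSG00000031162, chromosome X, 7959260 to 7978071, minus strand, GRCm38 here and below) had a lowest, median and highest value of 0, 6.90 and 11.03 in cells without a state, against 0, 0.98 and 11.68 in Multi-Lin-1. It averaged 5.37 ± 4.07 (SD over cells, n = 27) and 3.28 ± 4.05 (n = 26), a difference of 2.09. It reached a TPM of 30 in 17 of 27 cells without a state (62.96%, Clopper-Pearson 95% interval 42.4 to 80.6%) and in 7 of 26 Multi-Lin-1 cells (26.9%, 11.6 to 47.8%). These intervals, like those below, hold the error of counting cells and no other.

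Klf1 (ENSMUSG00000054191, chromosome 8, 84901928 to 84905291, plus strand) was listed at 0 in most cells of both sets. It reached a TPM of 30 in 8 cells without a state (29.6%, 13.8 to 50.2%), with log2 values from 6.08 to 9.77, and in 1 Multi-Lin-1 cell, at 8.23 (3.85%, 0.0973 to 19.6%). The means were 2.49 ± 3.53 and 0.48 ± 1.64, a difference of 2.01. It was 1.17 in cells numbered 078 and 3.21 in those numbered 079.

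Ms4a2 (ENSMUSG00000024680, chromosome 19, 11615523 to 11623719, minus strand) had a median of 6.13 and a highest value of 12.39 in cells without a state, against 0.65 and 10.49 in Multi-Lin-1. It was clearly expressed in 14 cells without a state (51.9%, 31.9 to 71.3%) and 9 Multi-Lin-1 cells (34.6%, 17.2 to 55.7%), and the intervals overlap widely. Its difference of 1.79 is the smallest of the 4 higher markers and was 0.87 in cells numbered 079.

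Mcpt8 (ENSMUSG00000022157, chromosome 14, 56082166 to 56085273, minus strand) showed the widest spread. In cells without a state it had a median of 0.93 and a highest value of 14.63, with 12 cells from 5.87 upward and the others below 2, while in Multi-Lin-1 the median was 0.97 and the highest value 9.58. A similar number of cells had at least a TPM of 1, 13 and 12, but 12 cells without a state (44.4%, 25.5 to 64.7%) and 2 Multi-Lin-1 cells (7.69%, 0.946 to 25.1%) reached a TPM of 30. The mean differed by 3.53 (4.81 ± 5.61 against 1.28 ± 2.24). The median over cells did not, with a difference of -0.0409, so the difference in the mean rests on these highly expressing cells.

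Cd34 (ENSMUSG00000016494, chromosome 1, 194938819 to 194961279, plus strand) ran the other way. Its median was 1.33 in cells without a state and 7.44 in Multi-Lin-1, and its means were 3.44 ± 3.64 and 6.77 ± 3.33, a difference of -3.33. It reached a TPM of 30 in 11 of 27 cells without a state (40.7%, 22.4 to 61.2%) and in 19 of 26 Multi-Lin-1 cells (73.1%, 52.2 to 88.4%). The intervals of both sets overlap for Cd34, as they do for Gata1, Klf1 and Ms4a2, and those of Mcpt8 lie just apart. The difference was larger in cells numbered 079 (-4.32) than in those numbered 078 (-2.57).

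**Figure D1:**
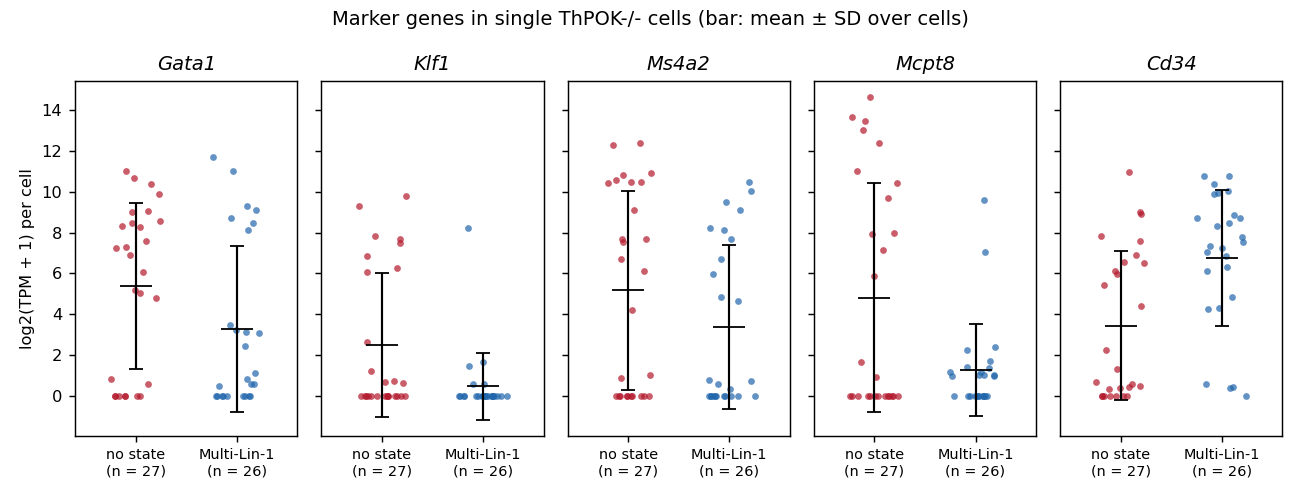
Log2(TPM + 1) of the 5 marker genes, 1 point per cell, in cells without a state (n = 27, left in each panel) and Multi-Lin-1 cells (n = 26, right); the bars are the mean and SD over cells. For Mcpt8, 12 cells without a state stand at a TPM of 30 or more, against 2 Multi-Lin-1 cells, while for Cd34 the Multi-Lin-1 cells stand higher.

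By Klf1, Ms4a2 and Mcpt8, few cells without a state carried erythroid and basophil or mast cell markers at once. At a TPM of 30, 7 of the 27 had Klf1 with neither Ms4a2 nor Mcpt8, 16 had Ms4a2 or Mcpt8 without Klf1, 1 had both kinds and 3 had none of the 3 genes. In Multi-Lin-1 the same counts were 1, 11, 0 and 14. At a TPM of 1 they were 7, 15, 3 and 2 in cells without a state and 1, 16, 2 and 7 in Multi-Lin-1. At a TPM of 30, Gata1 was found with either kind, in 6 of the 8 Klf1 cells and 10 of the 14 Ms4a2 cells without a state. Klf1 and Cd34 shared 0 cells without a state at a TPM of 30 (of 8 and 11) and 2 at a TPM of 1 (of 10 and 14).

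The values of 16 genes in every cell are plotted together. These genes were chosen after their values were seen, most of them because they differed, so the contrast between the sets in the plot follows from the choice.

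**Figure D2:**
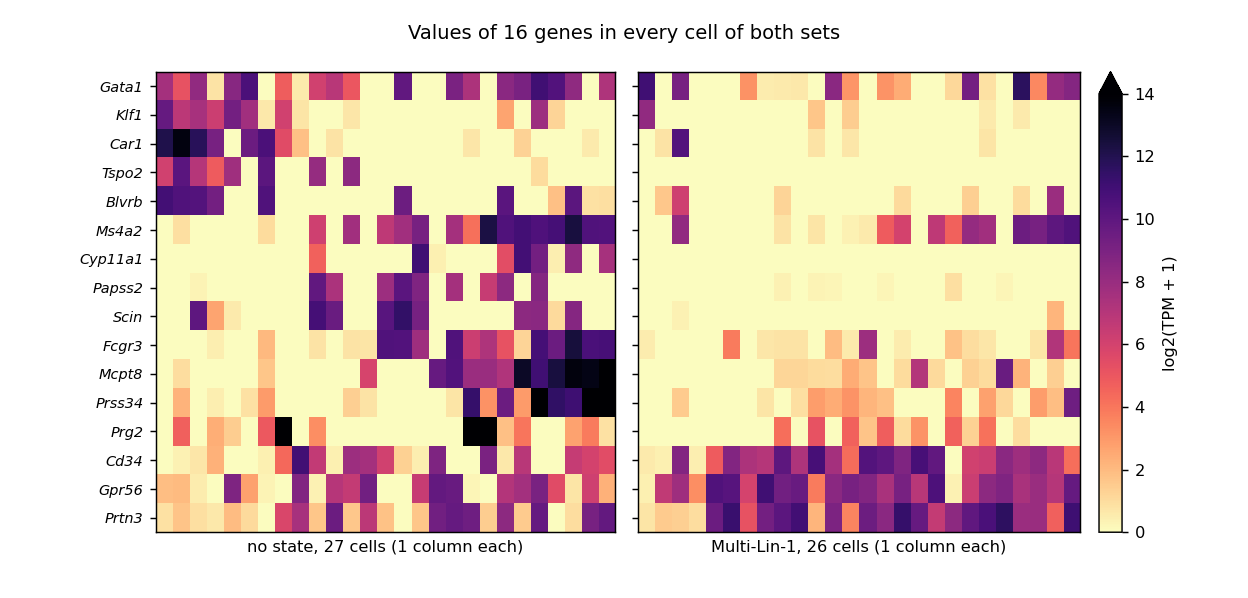
Log2(TPM + 1) of 16 genes (rows) in each of 27 cells without a state (left) and 26 Multi-Lin-1 cells (right), 1 column per cell; the scale stops at 14 and higher values are black. Columns are ordered by the mean of Klf1, Car1 and Tspo2 minus the mean of Ms4a2, Mcpt8 and Prss34, so the order itself follows the values; cells without a state have dark blocks at either end, and Multi-Lin-1 cells are darkest in Cd34, Gpr56 and Prtn3.

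Among erythroid genes, 5 of the 14 kept members of a list of 35 met the size rule as higher and 0 as lower, and the median difference of the 14 was 0.75, against -0.15 over all genes kept. The count of higher genes was 2 on the log2(TPM + 10) scale, 0 on the log2(TPM + 30) scale and 3 when genes had to be detected in at least 20% of cells. With medians over cells in place of means it was 1 (Gata1), and 2 genes were lower (Car2 and Nfe2), while Klf1, Car1, Blvrb and Tspo2 had a median of 0 in both sets. Over all genes kept 1.7% were higher and 5.28% lower, and the counts of this and the later lists stand beside those shares. The lists were chosen with earlier results of these data known, and Gata1 and Klf1 are also markers above. Setting the counts beside those shares is therefore not a test. In a short list, 1 lower gene is near the share of all genes. The 5 higher erythroid genes were Gata1, Klf1, Car1, Blvrb and Tspo2. Car1, a carbonic anhydrase of early red cells, was found at a TPM of 30 or more in 7 cells without a state, with log2 values from 5.47 to 13.60, and in 1 Multi-Lin-1 cell at 10.38. Tspo2, a cholesterol-binding protein of red cell precursors, was detected in 9 cells without a state and in 0 of 26 Multi-Lin-1 cells, a count that leaves room for a share of 11.5%. Tspo2 passed the filter through cells without a state alone, so it could not have counted as lower. With the filter of 20%, Car1 and Tspo2 were the erythroid genes no longer counted. Blvrb, the biliverdin reductase of red cells, was clearly expressed in 8 and 2 cells, with a difference of 2.35.

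The late erythroid genes were not among them. Haemoglobin chains were nearly absent from both sets, with Hba-a1 in 1 cell without a state and 0 Multi-Lin-1 cells and Hbb-b2 in 1 and 3 cells. Reads of globin genes can be split between near-identical copies, so these counts are uncertain. Alas2, the erythroid enzyme of haem synthesis, and Slc4a1, the red cell anion exchanger, were under a TPM of 1 in all 53 cells. Of 7 kept genes of haem synthesis, 0 met the size rule (median difference 0.37). The erythropoietin receptor Epor, kept out by the filter, was detected in 3 cells without a state and 1 Multi-Lin-1 cell. Gfi1b, a repressor of erythroid and megakaryocytic cells, averaged 1.93 ± 3.68 and 0.64 ± 2.16, a difference of 1.30 that did not meet the rule.

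Klf1 and Car1 shared 6 cells without a state, of 8 and 7 that had each at a TPM of 30. Car1 shared 0 cells with Mcpt8 and 0 with Ms4a2, and Tspo2 shared 0 with Mcpt8 and 2 of its 7 with Ms4a2. Blvrb overlapped more, sharing 2 of its 8 cells with Mcpt8 and 3 with Ms4a2. With Blvrb left out, 3 of the 27 cells had any of Klf1, Car1 and Tspo2 together with any of Mcpt8, Prss34 and Ms4a2. Cells 17, 41 and 50, which are not among them, had Blvrb (10.06, 10.14 and 9.50) with Ms4a2 (12.39, 10.47 and 7.70). The overlap therefore depends on which erythroid genes are counted. Of the megakaryocyte list, 0 of 9 kept genes met the rule as higher and 1 as lower, Fli1, an ETS factor of that lineage (4.91 ± 3.29 against 6.42 ± 1.75, difference -1.51). That call ended when any of 23 single cells was left out (nearest to 0, -1.32), with the term for genes detected (-1.29), with centred cells, with medians and with cells of at least 2000 genes (-0.966). The integrin chain Itga2b averaged 3.04 ± 3.66 and 2.17 ± 2.84, a difference of 0.87 that did not meet the rule.

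Of the basophil list, 2 of 8 kept genes (15 fixed) met the size rule as higher, Mcpt8 and Prss34, and 0 as lower. The median difference of the 8 was 0.39. Prss34, a basophil and mast cell protease, reached a TPM of 30 in 7 cells without a state and 1 Multi-Lin-1 cell, and 3 cells without a state were above 15 on the log2 scale, the highest at 15.94. All 7 of those cells also had Mcpt8. Like Mcpt8, its median over cells did not differ in that direction (-0.0276). Ifitm1, a membrane protein abundant in basophils, differed by 2.02 but by 5.04 in cells numbered 078 and by -1.08 in those numbered 079, so it did not meet the rule. Il3ra and Csf2rb, chains of the interleukin-3 receptor, had differences of -0.01 and -1.17, and neither met it.

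Of the mast cell list, 2 of 11 kept genes (21 fixed) were higher, Ms4a2 and Cyp11a1, and 0 lower, with a median difference of 0.08, and on the log2(TPM + 10) scale 0 were higher. Cyp11a1, the side-chain cleavage enzyme that starts steroid synthesis, was detected in 7 cells without a state, with log2 values from 4.65 to 11.03, and in 0 of 26 Multi-Lin-1 cells. Cyp11a1 thus passed the filter through cells without a state alone and could not have counted as lower. All 6 of its cells at a TPM of 30 or more also had Ms4a2. Fcer1a, the alpha chain of the IgE receptor, fell under the filter, with 5 cells without a state and 0 Multi-Lin-1 cells.

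Several genes shared by the mast cell, basophil and early progenitor programmes were expressed in both sets and did not meet the rule. Gata2, the factor of stem and mast cells, averaged 6.88 ± 4.19 in cells without a state and 7.23 ± 2.69 in Multi-Lin-1. Cpa3, the mast cell carboxypeptidase, averaged 6.05 ± 5.32 and 6.82 ± 4.42, and Hdc, the enzyme that makes histamine, 3.48 ± 3.92 and 3.42 ± 4.34. Srgn, the core protein of granule proteoglycan, reached a TPM of 30 in 24 of 27 and 26 of 26 cells. The mast cell granule proteases Cma1, Mcpt4, Tpsb2 and Tpsab1 were under a TPM of 1 in all 53 cells. 

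**Figure D3:**
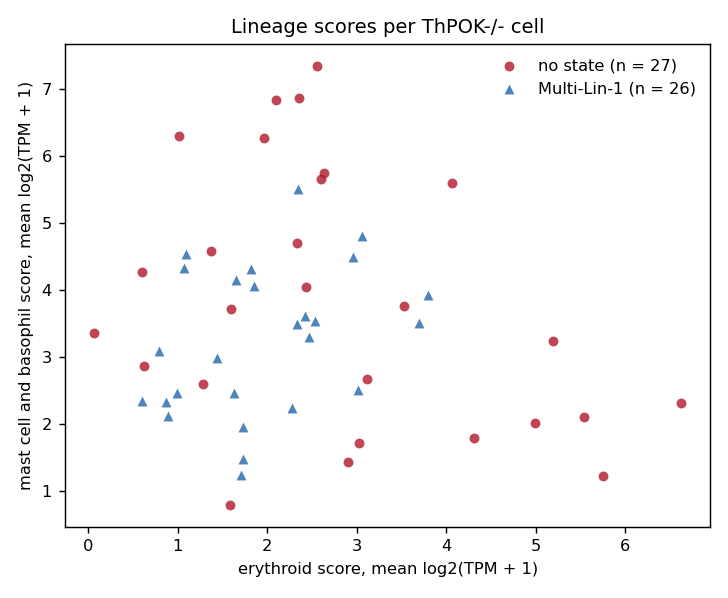
Mean log2(TPM + 1) per cell of 14 erythroid genes (horizontal axis) and 19 mast cell and basophil genes (vertical axis); circles are 27 cells without a state and triangles 26 Multi-Lin-1 cells. Cells without a state spread farther along both axes, with erythroid scores up to 6.62 and mast cell and basophil scores up to 7.35, against 3.802 and 5.51 in Multi-Lin-1. Some genes, such as Tspo2 and Cyp11a1, entered the scores through cells without a state alone, which adds to that spread.

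Both lineage scores spread more among the cells without a state. The erythroid score averaged 2.82 ± 1.70 in them and 1.95 ± 0.89 in Multi-Lin-1, and the mast cell and basophil score 3.84 ± 1.94 and 3.26 ± 1.10, so both SDs were larger without a state. Part of this follows from the filter. Tspo2 and Cyp11a1 were kept through cells without a state alone and were under a TPM of 1 in every Multi-Lin-1 cell. How much of the spread rests on such genes was not tested. The stem and multipotent score had similar SDs, 2.56 ± 1.03 and 3.23 ± 0.998. Across all genes, however, the spread was much alike. The median Pearson r between pairs of cells was 0.346 within the cells without a state, 0.381 within Multi-Lin-1 and 0.357 between the sets.

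In 3 cells without a state, eosinophil granule genes took a large part of all transcripts. Prg2, the eosinophil major basic protein, made up 23.8% of TPM in cell 16 (number 078), 30.01% in cell 81 and 8.19% in cell 83 (both number 079). Cell 16 also had Epx, eosinophil peroxidase, at a log2 value of 12.27, and cell 81 had it at 8.69. Cell 83 had Ear2 at 1.89% of TPM, with the reservation that the Ear genes are near-identical copies, and it had the fewest genes detected of all (1019). The same cells are also in the marker counts above. Cell 16 had Ms4a2 at 12.27 and Mcpt8 at 7.97, cell 81 had Mcpt8 at 7.92, and cell 83 had Klf1 at 6.08. The counts of cells by marker are thus not separate from these eosinophil-rich cells. The whole list of 11 eosinophil genes summed to at most 0.098% of TPM in the other 24 cells without a state and the 26 Multi-Lin-1 cells. Prg2 was the 1 kept gene of the list that met the size rule (difference 1.68), and without these 3 cells its difference was -0.12.

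Because TPM has a fixed sum, such genes leave less for all others in the same cell. With the 3 cells left out, a choice made after seeing the data, 197 genes were higher and 298 lower, in place of 122 and 378. All 5 markers still met the rule. Of 51 named genes that met it, 46 still did, and Fli1 and Prg2 were among the 5 that did not.

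**Figure D4:**
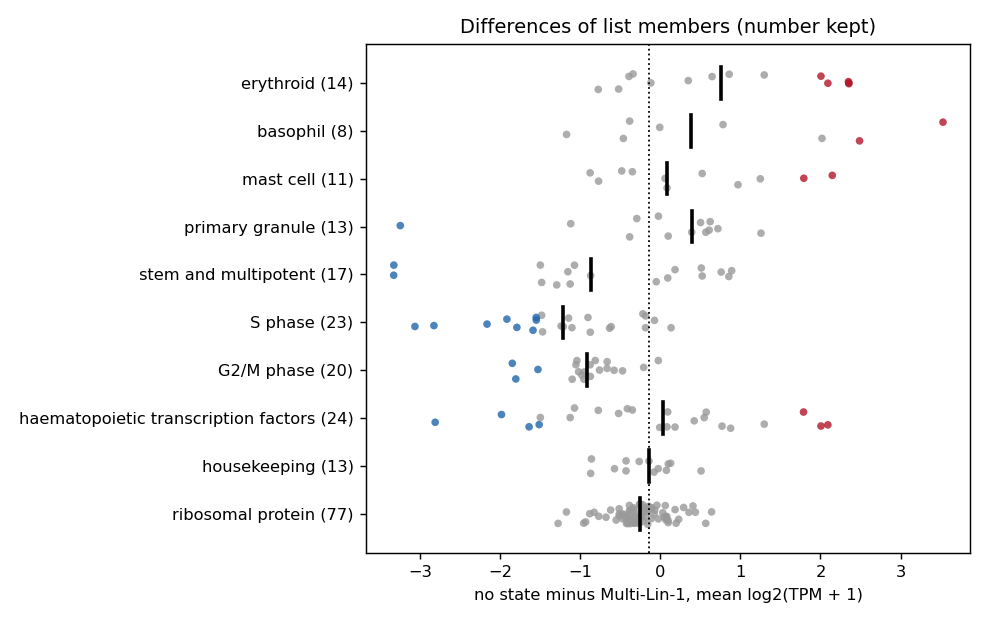
Difference in mean log2(TPM + 1), cells without a state minus Multi-Lin-1, for each kept gene of 10 lists (number kept in brackets); red points met the size rule as higher, blue as lower and grey did not, the black bar is the list's median and the dotted line the median over all genes kept (-0.15). Of the 14 erythroid genes 9 lie above 0 and 5 below, and S phase and G2/M genes lie nearly all below 0.

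Of the stem and multipotent list, 0 of 17 kept genes (26 fixed) were higher and 2 were lower, Cd34 and Gpr56, and the median difference was -0.87. With medians over cells 4 were lower (Angpt1 and Meis1 as well) and 2 higher (Kit and Txnip). Gpr56, an adhesion receptor of stem and early progenitor cells also named Adgrg1, averaged 4.18 ± 3.79 in cells without a state and 7.51 ± 2.82 in Multi-Lin-1. It reached a TPM of 30 in 13 of 27 and 22 of 26 cells. Meis1, a homeobox factor of stem cells, had means of 2.995 and 4.49, and Angpt1, a growth factor made by early progenitors, 4.59 and 6.08, and neither met the rule. The receptor Kit, whose protein was used for the bead enrichment, was detected in 17 cells of each set (3.96 ± 3.24 and 3.44 ± 2.87). Flt3, a receptor of lymphoid and myeloid progenitors, was detected in 2 cells of each.

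Neutrophil and monocyte genes were examined next, since the cells were labelled modified GMP. Mpo, myeloperoxidase, was detected in all 53 cells, and its means were 6.94 ± 4.57 in cells without a state and 8.05 ± 3.71 in Multi-Lin-1. Elane, neutrophil elastase, was detected in 25 and 24 cells, but at a TPM of 30 or more in 6 and 5. The monocyte factor Irf8 was detected in 1 and 0 cells and the monocyte receptor Csf1r in 0 and 1, so both were at or near 0 in each set. Of 13 kept primary granule genes, 0 were higher and 1 was lower, Prtn3, proteinase 3 (4.18 ± 3.91 against 7.43 ± 3.65, difference -3.25). As 5.28% of all genes kept were lower, 1 of 13 is near that share. With medians over cells 3 were lower (Mpo, Prtn3 and Cst7) and 0 higher. The list's median difference was 0.39, on the other side of 0 from Prtn3 and from Mpo (-1.12). Ms4a3, a membrane protein of granulocyte progenitors, differed by 1.26 and Ctsg, cathepsin G, by 0.57, and neither met the rule.

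Of 2 kept genes of the secondary granule and neutrophil list, S100a8 was lower, detected in 5 cells without a state and 8 Multi-Lin-1 cells. Its call ended when any of 7 single Multi-Lin-1 cells was left out (nearest to 0, -1.297), with the term for genes detected (-1.399), with centred cells, with medians and in cells numbered 079 alone. Its partner S100a9 took 7.81% of TPM in 1 Multi-Lin-1 cell, and it did not meet the rule. Fcgr3, a receptor for IgG found on basophils, mast cells and macrophages as well as on monocytes, was the 1 gene of 8 kept monocyte genes that was higher. It was clearly expressed in 12 cells without a state and 2 Multi-Lin-1 cells, and 11 of the 12 also had Ms4a2. Fcgr3 encodes a protein that GMP sorts commonly select for. The markers of the gate used for these modified GMP are not given in the sources, so whether it matched such sorts is unknown.

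Of 24 kept haematopoietic transcription factors, 3 were higher and 4 lower. Beside Gata1 and Klf1, Ikzf1 (Ikaros) was higher, detected in 18 cells without a state and 6 Multi-Lin-1 cells, with a difference of 1.80 in each label number. The 4 lower were Lyl1, Lmo2, Fli1 and Ikzf2. Lyl1, a helix-loop-helix factor of stem and progenitor cells, averaged 1.14 ± 2.28 and 3.95 ± 3.39 and was lower by a similar amount in both label numbers (-2.68 and -2.97). Lmo2, an adaptor that binds GATA1 and LYL1 or TAL1 in 1 complex, averaged 3.51 ± 3.06 and 5.15 ± 3.01. With the term for genes detected or with centred cells 2 of the 4, Lyl1 and Ikzf2, were still lower, and the call of Lmo2 also ended without Multi-Lin-1 cell 43 (-1.44) or cell 5 (-1.47). Tal1 itself differed by -0.52, Runx1 by 0.09, Spi1 (PU.1) by -0.41 and Cebpa by 0.57, and none of these met the rule. Myb was high in both sets, 7.005 ± 2.95 and 6.13 ± 2.55.

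Across all genes, 122 were higher and 378 lower in cells without a state. The split depends on how cells are scaled. Higher genes made up 24.4% of those that met the rule as reported. With a term for the number of genes detected, genes higher in cells without a state numbered 203 and genes lower in cells without a state 198, so that 50.6% were higher. With each cell centred on widely detected genes they numbered 263 and 190 (58.1% higher), and the median difference of all genes moved to 0.16, from -0.15 as reported. In 53.9% of genes, cells numbered 078 and cells numbered 079 gave a difference of 1 sign.

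The genes detected per cell differed in the same direction as the larger number of lower genes. Their lowest, median and highest number was 1019, 2613 and 4093 in cells without a state and 1660, 2950 and 3973 in Multi-Lin-1, with means of 2660 ± 655 and 2895 ± 654. The medians were 2683 and 2976 in cells numbered 078, and 2454 and 2528 in those numbered 079. Reads per cell are not given, so depth is unknown, and the part of depth or RNA quality in the lower genes was not tested beyond these alternatives. The targeted gene Zbtb7b was detected in 0 of 27 and 2 of 26 cells, and Tbp, which every cell uses, in 4 and 6, so a value of 0 does not show that a gene is off.

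The 12 genes with the largest differences included several outside the lists, and none but Mcpt8 was a marker given above. Cope, a subunit of the coatomer that coats Golgi vesicles, led with 3.55, reaching a TPM of 30 in 24 of 27 cells without a state and 12 of 26 Multi-Lin-1 cells. Scin, an actin-severing protein, differed by 3.28 and was detected in 11 and 1 cells, at log2 values up to 11.47 and 2.18. Papss2, which makes the sulfate donor used for heparin and other sulfated sugars, differed by 2.70. It was detected in 9 cells without a state, at 6.41 to 10.12, and in 0 Multi-Lin-1 cells, and 8 of the 9 cells also had Ms4a2.

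Rgs2, which limits G protein signalling, differed by 2.60, but by 4.25 in cells numbered 078 and by 1.11 in those numbered 079. Tspo, a protein of the outer mitochondrial membrane and relative of Tspo2, differed by 2.49 with similar values in both (2.43 and 2.36), as did Ik, a splicing factor (2.69 and 2.67). Arl8b, a GTPase that moves lysosomes, differed by 2.57. Also among them were Fcgr3 (3.11), the pseudogene Pisd-ps3 (2.72) and Pddc1 (2.58).

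At the other end stood Snrpa1, a protein of the U2 splicing particle, with a difference of -3.81. It reached a TPM of 30 in 5 cells without a state and 18 Multi-Lin-1 cells. Etfb, a subunit of a mitochondrial electron carrier, was detected in all 26 Multi-Lin-1 cells and in 21 cells without a state, and averaged 5.80 ± 4.01 and 9.56 ± 2.05. The sets overlapped for both genes. Cd48, a SLAM family receptor of blood cells, differed by -3.12, Tmem176b, a membrane protein, by -3.07, Nxt1, a cofactor of RNA export, by -3.07, and Pmf1, a kinetochore protein, by -3.23. Gm13363 (-3.75) is annotated as a processed pseudogene, and its reads could belong to a near-identical copy. The list also held 4933434E20Rik (-3.31), Cd34, Gpr56, Prtn3 and Rrm1.

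**Figure D5:**
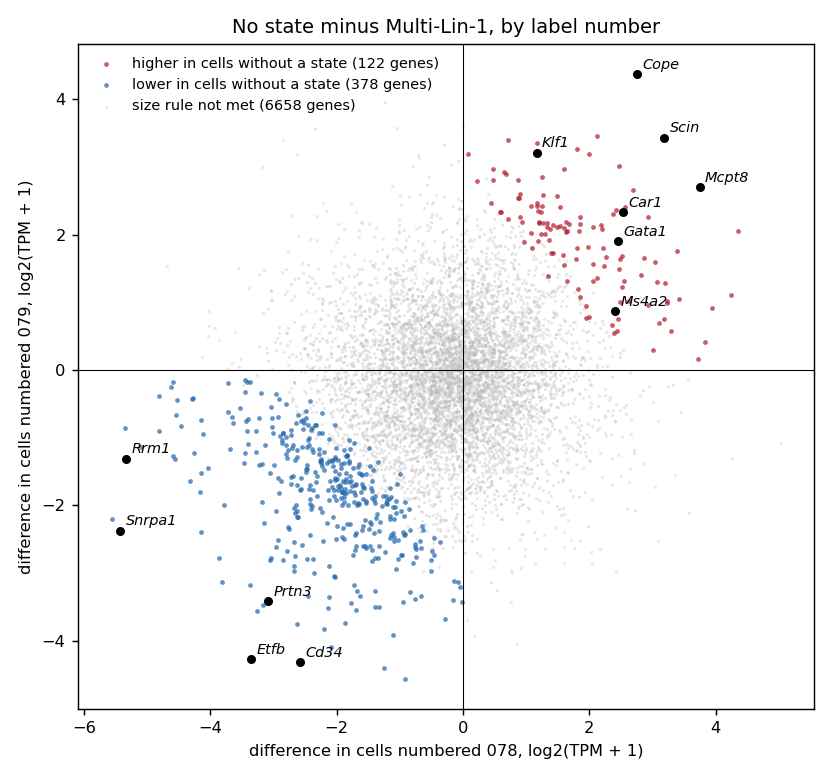
Difference of each of 7158 kept genes, cells without a state minus Multi-Lin-1 in mean log2(TPM + 1), in cells numbered 078 (horizontal, 15 against 11 cells) and 079 (vertical, 12 against 15 cells); red genes were higher (122) and blue lower (378) by the size rule, and grey genes did not meet it. Cope, Scin and Mcpt8 lie far up on both axes and Snrpa1, Etfb and Cd34 far down, while the grey genes lie on all sides of 0.

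Part of the genes of DNA replication and division were lower in cells without a state. Of 23 S phase genes, all kept, 8 met the rule as lower and 0 as higher, 22 had a difference below 0, and the median was -1.21. Rrm1, the large subunit of the enzyme that makes deoxynucleotides, reached a TPM of 30 in 4 cells without a state and 13 Multi-Lin-1 cells and differed by -3.06. Chaf1b, a chaperone that loads histones on new DNA, differed by -2.83, and Mcm4, a subunit of the replicative helicase, by -2.16. Of 20 G2/M genes, 3 were lower (Top2a, Nusap1 and Cks2), 0 higher, and all 20 had a difference below 0, with a median of -0.91. Cdk4, the kinase of the G1 phase, was the 1 of 9 kept G1 genes that was lower.

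The S phase score moved with the number of genes detected. Over the 27 cells without a state, the S phase score and the genes detected had a Spearman rho of 0.73 and a Pearson r of 0.62, and over the 26 Multi-Lin-1 cells 0.61 and 0.63. With a term for genes detected, 3 of the 23 S phase genes, 0 of the 20 G2/M genes and 0 of the 9 G1 genes were lower. In cells numbered 078 alone 15 S phase genes were lower and in those numbered 079 alone 3, and the count ran from 5 to 10 as each cell was left out in turn. The S phase score averaged 2.24 ± 1.69 and 3.44 ± 1.69, a difference smaller than the SD of either set.

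In the other lists 1 gene met the rule. Of 10 kept immediate early and stress genes, Egr1 was higher (6.59 ± 4.05 against 5.08 ± 3.95, difference 1.51), a call that ended when any of 26 single cells was left out, while Fos and Jun did not meet the rule. Of 77 kept ribosomal protein genes and 13 housekeeping genes, 0 met it, with median differences of -0.26 and -0.14. The same was true of the kept macrophage (2), dendritic cell (5), B lymphoid (1), T, NK and innate lymphoid (2) and stroma and endothelium (2) genes, and of the growth factor receptors (12), the p53 targets (5) and the interferon response genes (4). Of the 13 B lymphoid genes fixed, 10 were not detected in any of the 53 cells, Cd79a among them. Of the 15 T, NK and innate lymphoid genes, 9 were not, Cd3e and Cd3g among them. Their partner chains Cd79b and Cd3d were detected in cells of both sets, and Lck, Vpreb1 and Rag2 in Multi-Lin-1 cells.

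By whole profile most cells without a state lay nearest to Multi-Lin-1. Over 8044 genes, each cell was correlated with the mean of Multi-Lin-1, IG2 and proNeu-1, with the cell itself left out of its own mean. Of the 27 cells without a state, 24 (88.9%, 70.8 to 97.6%) had their highest Pearson r with Multi-Lin-1, 3 with IG2 and 0 with proNeu-1. Of the Multi-Lin-1 cells themselves, 24 were nearest to Multi-Lin-1 and 2 to IG2. Of the 12 proNeu-1 cells, however, 10 were nearest to IG2 and 2 to proNeu-1. The count of 0 with proNeu-1 is therefore not informative, since the measure did not tell proNeu-1 from IG2. With the 500 most variable genes, 11 of the 12 proNeu-1 cells were nearest to proNeu-1, as were 2 cells without a state. The median r with the Multi-Lin-1 mean was 0.578 without a state and 0.616 in Multi-Lin-1, and the ranges overlapped (0.444 to 0.641 and 0.378 to 0.664). IG2 cells had a median r of 0.626 with the same Multi-Lin-1 mean, so the size of r alone does not mark likeness to that state. These correlations share the abundant genes of every cell and rest on the same cells that define each mean.

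Splicing was compared by PSI (percent spliced in), the share of junction reads for 1 of the alternative junctions, from 0 to 1. Of 80855 events, 6384 had a value in at least 8 cells of each set. A difference in mean PSI of at least 0.3 with 1 sign in cells numbered 078 and 079 was found for 13 events as higher (0.204%) and 13 as lower (0.204%), in 16 genes, several of them counted from both junctions of 1 event. The median size of the difference was 0.00304, and in 2963 events every cell had either 0 or 1. Cells without a state had a value for a median of 7872 events, against 10136.5 in Multi-Lin-1.

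The event in a listed gene was in Nfe2, a globin gene activator of erythroid cells and megakaryocytes. It sets the junction from 103251098 to 103255150 on chromosome 15 (within the gene on GRCm38, on the minus strand) against reads into a retained intron. PSI was 0.50 ± 0.48 in 12 cells without a state, of which 3 were at 0 and 4 at 1, and 0.93 ± 0.20 in 9 Multi-Lin-1 cells, of which 7 were at 1. The difference was -0.43, with -0.38 in cells numbered 078 and -0.49 in those numbered 079. The sets overlapped, and junction read counts are not given, so the precision of each value is unknown. The level of Nfe2 did not meet the size rule (4.81 ± 4.31 against 5.59 ± 3.60). Outside the lists, and named after the values were seen, Ap2m1, a clathrin adaptor subunit, had the largest difference, 0.49 for 1 splice junction and -0.47 for the alternative one, over 14 and 10 cells.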

How the data were processed

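Single-cell RNA of 96 cells labelled ThPOK-/- modified GMP was read from 1 expression table, 1 splicing table and 1 table of states. The deposited expression values are log2 values named RSEM TPM by the authors; raising 2 to each and subtracting 1 sums to 1e+06 per cell, so they were read as log2(TPM + 1) with a pseudocount of 1. The deposited PSI values are fractions from 0 to 1 made by the authors. Per the submitters' processing notes, Bowtie2, RSEM and STAR and the builds mm9 and mm10 were used, with no versions or roles. The splicing table holds 1142 columns, and the table of states 511 entries, for cells without a matching label, which were left out.

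Cells were grouped by the deposited states. Cells are not replicates, so no p-value was computed; SDs are over cells, and shares have Clopper-Pearson 95% intervals. Depth is unknown, since TPM keeps none and PSI comes without read counts, and genes at a TPM of 1 or more stand in for it. Intervals and limits from a count of 0 (3 cells of the total) cover counting only. The members and the 26 gene lists (454 genes) were chosen with earlier results of these data known. Named are the 5 markers, the 12 genes of largest and the 12 of smallest difference that met the size rule, and list members, of which some are not reported here; others are said to be chosen later. Doublets were not called, for want of counts, and every cell was kept. The scripts were tested on simulated data. Alternatives were other pseudocounts, filters, sizes of the rule, a term for genes detected, centred cells, medians, each label number alone and each cell left out. Tools were pandas 2.3.3 and NumPy 2.4.6 under Python 3.11.15, with SciPy 1.17.1 and, for plots, matplotlib 3.10.9.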

Additional observations from a re-analysis of the deposited data

How the results depend on the processing

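All values come from 1 sample of unknown depth, so none of the settings below tests the difference between other cells or animals. Of genes higher in cells without a state (122) the count was 5 with log2(TPM + 30), 20 with log2(TPM + 10), 374 and 44 with a size rule of 1 and 2, 203 with a term for genes detected, 263 with centred cells, 340 and 389 in cells numbered 078 and 079 alone, and 197 without the 3 eosinophil-rich cells. Of genes lower in cells without a state (378) the count was 16, 68, 888 and 122, 198, 190, and 896 and 654 under the same settings in the same order, and it moved by less than 1.5 times without the eosinophil-rich cells (298). A pseudocount of 30 shrinks every difference of low genes by construction, and 1 label number alone drops the need for 1 sign in both. As each cell was left out in turn the counts ran from 115 to 153 and from 328 to 427. Without a filter, with a filter of 20%, with cells of at least 2000 genes or with medians, both counts stayed within 1.5 times, but with medians 45 of the 122 and 209 of the 378 genes were the same. Of 51 named genes that met the rule, 15 still met it with log2(TPM + 30), 28 with log2(TPM + 10), 37 with the term for genes detected, 42 with centred cells and 31 with medians, and 9 of them were lost when some single cell was left out. The differences of Mcpt8 (-0.0409) and Prss34 (-0.0276) were reversed as medians over cells, and that of Prg2 (-0.120) without the eosinophil-rich cells. Cells without a state nearest to Multi-Lin-1 numbered 23 with the 500 most variable genes, 24 with Spearman's rho, and 21 of 25 with at least 2000 genes. Splicing events of higher PSI in cells without a state numbered 5 with 12 cells per set and 55 with a difference of 0.2, and splicing events of lower PSI in cells without a state 4 and 51. No paired analysis was possible because the labels give 1 group only.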
